A study of Homo sapiens with 9 samples.

Results

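The 33 genes described here are the non-globin neighbours of HBG1 with reads in K562 cells. They were chosen by position and by their read counts. A gene was included when its GENCODE 29 start coordinate lies on chromosome 11 between 4248079 and 6248079 (GRCh38), which is 1 Mb on either side of the HBG1 start coordinate, when it is not a beta-like globin gene or BGLT3, and when at least 1 of the 9 libraries held 10 or more counts of it. The window holds 134 such non-globin genes of the 58347 in the count table. Of these, 33 met the count rule, 49 had lower counts and 52 had no count in any library. The counts that selected them are measured values, so the fact that these genes are expressed is not a result. The 33 comprise 13 olfactory receptor genes, 6 olfactory receptor pseudogenes, 7 TRIM genes, 3 other protein-coding genes, 3 other pseudogenes and 1 non-coding RNA gene. Their starts lie downstream of HBG1 in 6 cases and upstream in 27, and 18 of the genes overlap the long annotated span of HBG2 (5253190 to 5505605, minus strand).

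RNA was sequenced from K562-FIRE cells, a stable derivative of the human erythroleukaemia line K562. All groups carry the same lentiviral parts, driven by the EF1a promoter: dCas9, which binds at a guide RNA without cutting, an MS2-Fkbp(1x) fusion, and SS18-Frb, a fusion of a BAF chromatin remodelling subunit. The guide was directed either to the HBG1 promoter (HBG1 sgRNA) or to no target (non-targeting sgRNA), and the cells received 10 nM rapamycin or DMSO for 24 h. Rapamycin joins Fkbp to Frb, and it also inhibits mTORC1 in any cell. Cells with the HBG1 sgRNA gave 3 rapamycin and 3 DMSO libraries, and cells with the non-targeting sgRNA gave 2 rapamycin libraries and 1 DMSO library. The labels do not say that replicates came from separate cultures, so p-values measure only the spread between these libraries. Each guide is present in its own cell population, so the guide and the population that carries it cannot be told apart.

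Libraries held 19797409 to 31619671 counts. All 9 erythroid markers examined were above 1 CPM, the depth-normalised count used throughout, scaled here by TMM, with a summed level of 3318 to 5284 CPM. Of 5 markers of olfactory neurons, 3 had a mean above 1 CPM. The 5 summed to 70.6 to 90.8 CPM, most of it from the adenylyl cyclase gene ADCY3. The cyclic nucleotide-gated channel gene CNGA2 was at 0 in all libraries. The targeted gene HBG1 measured 295 ± 150 CPM (SD, n = 3) in DMSO-treated cells with its own guide, and 1928 ± 469 CPM (SD, n = 3) after rapamycin. It was higher with the non-targeting sgRNA, at 8228 CPM in the DMSO library and 8845 and 8937 CPM in the rapamycin libraries. Both HBG1 sgRNA libraries numbered 1 stood apart from replicates 2 and 3, with a chi-square statistic per gene of 15.0 to 16.8 against them, compared with 4.58 and 7.38 between replicates 2 and 3.

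The beta-globin genes sit inside a large cluster of olfactory receptor genes. Olfactory receptors are G protein-coupled receptors that detect odorants in neurons of the nasal epithelium, and most of their genes are silent in other cells. The enhancers of the beta-globin locus control region lie between HBE1 and the OR51B genes, and the surrounding receptor genes are used as a reference for how far the influence of those enhancers reaches. Further upstream lies a cluster of TRIM genes. TRIM proteins combine a RING domain, which transfers ubiquitin, with B-box and coiled-coil domains, and several members restrict viruses and are induced by interferon.

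RefSeq promoter sequences (GRCh38.p14, the 250 bases before the annotated start) were found for 8 of the 33 genes. The 3 windows printed below belong to OR52A5, TRIM21 and TRIM6, and were chosen after the values were seen. OR52A5 and TRIM21 did not overlap between the guides over all 9 libraries, and TRIM6 had an unadjusted p under 0.05 between the guides under rapamycin. They are given 5′ to 3′ on the strand of the gene, with capitals marking the GATA core GATAA on either strand. TRIM6-TRIM34 has the same window as TRIM6.
OR52A5 (chr11:5138357-5138606, minus strand): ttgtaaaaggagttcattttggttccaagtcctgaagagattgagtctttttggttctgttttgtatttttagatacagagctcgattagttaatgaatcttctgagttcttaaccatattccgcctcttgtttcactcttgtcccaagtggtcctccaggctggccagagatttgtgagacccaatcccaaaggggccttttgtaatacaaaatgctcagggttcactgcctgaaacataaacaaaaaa
TRIM21 (chr11:4393703-4393952, minus strand): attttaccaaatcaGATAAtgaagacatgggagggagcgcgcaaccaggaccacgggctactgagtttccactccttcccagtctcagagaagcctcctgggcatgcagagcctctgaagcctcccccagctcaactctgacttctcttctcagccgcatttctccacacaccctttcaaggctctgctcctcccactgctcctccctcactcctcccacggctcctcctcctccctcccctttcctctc
TRIM6 and TRIM6-TRIM34 (chr11:5596387-5596636, plus strand): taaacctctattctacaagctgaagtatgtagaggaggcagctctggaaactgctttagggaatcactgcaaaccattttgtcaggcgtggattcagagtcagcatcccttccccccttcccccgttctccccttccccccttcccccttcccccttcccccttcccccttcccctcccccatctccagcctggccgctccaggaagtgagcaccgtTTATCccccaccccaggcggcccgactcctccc
GATAA occurs on either strand in 20.4% of all 35116 RefSeq promoter windows of 250 bases. The interferon response core, searched as GAAA, any 2 bases and GAAA, occurs on either strand in 3.02% of them. It was found in the TRIM5 window and in the TRIM34 window at 5624751 to 5625000, but not in that at 5632005 to 5632254. These windows are not printed, and none of the 3 printed windows holds it. These matches are descriptions of the letters in the windows and not binding sites.

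Most of the RNA from this neighbourhood came from 2 adjacent receptor genes, OR51B4 and OR51B5. The 33 genes took 0.0278% to 0.0319% of the counts of a library, and OR51B4 and OR51B5 held 59.2% to 65.0% of that. Per kilobase of annotated exon, the mean level over the 9 libraries was 55.5 CPM for OR51B4 and 34.5 CPM for OR51B5. The next in order, all on the same per-kilobase scale, were the receptor pseudogene OR51K1P at 7.29, FAM160A2 at 6.03, TRIM21 at 5.95, OR51I1 at 5.95, OR52D1 at 4.44, TRIM68 at 3.84 and TRIM5 at 3.19. In every library both OR51B genes exceeded every library's value for the other 31 genes: the lowest for OR51B5 was 30.1 and the highest for OR51K1P was 9.51. The ranges of OR51K1P, FAM160A2, TRIM21 and OR51I1 overlapped, so their order among themselves does not exceed the spread.

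**Figure D1:**
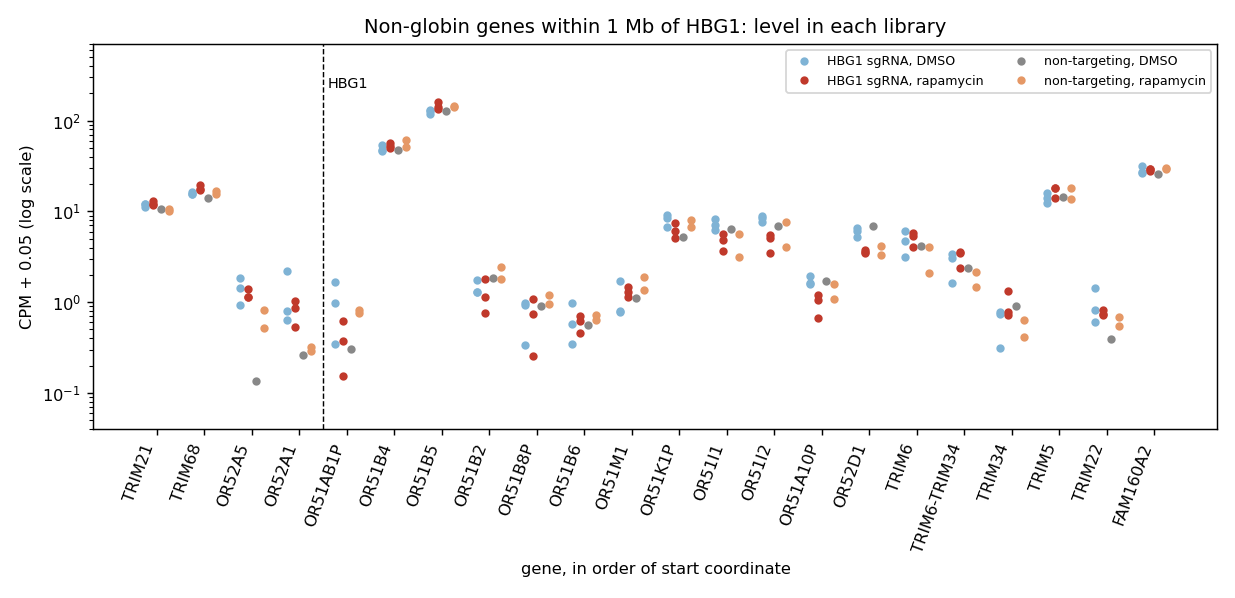
Level of each gene in each library, as TMM-scaled CPM plus 0.05 on a log axis, for the 22 genes with a mean of 10 or more counts, in order of start coordinate, with a dashed line at HBG1. Each point is 1 library, coloured by group. OR51B4 and OR51B5 stand above all other genes, and most genes overlap between groups.

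The count rule admitted some genes on few reads. Of the 33, 15 reached 10 counts in all 9 libraries, 14 in 2 to 8 libraries and 4 in 1 library. Those 4 were AC104389.3, AC104389.4, HNRNPA1P53 and OR51C1P, and a gene that enters through 1 library has to differ from the rest. A gene that reaches 10 counts with 1 guide or 1 treatment alone also has to differ, and nothing is read from its difference there. With the HBG1 sgRNA alone these were AC104389.2, AC104389.3, AC104389.4, OR51C1P, OR52A1 and UBQLNL, and with the non-targeting sgRNA alone HNRNPA1P53. Under rapamycin alone these were AC022762.2, AC104389.4 and HNRNPA1P53, and under DMSO alone AC104389.3 and OR51C1P. Just inside the rule were AC104389.4 and OR51B3P, each with a highest count of 10. Just outside was C11orf42, with a highest count of 9. After the low-count filter 30 of the 33 genes were tested, and AC104389.3, AC104389.4 and OR51B3P were not.

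The first comparison asked how these genes changed when rapamycin was added to cells with the HBG1 sgRNA, the condition that brings the SS18 fusion to the HBG1 promoter. Receptor genes between 181.7 and 238.8 kb upstream had lower levels after rapamycin, OR51B5 and most TRIM genes had slightly higher ones, and 2 of these differences passed the test. With edgeR's quasi-likelihood test, 2 of 30 genes were called at an adjusted p under 0.05 (6.67%), both lower, against 6.8% of all 23675 genes tested (2.75% higher and 4.05% lower). Before adjustment, 8 genes had a p under 0.05 (26.7%, against 20.8% of all genes). They include OR51C1P, which the count rule admitted under DMSO alone, so nothing is read from that share. The median log2 fold change was -0.045 over the 30 genes and 0.020 over all genes. The share of called neighbours was thus near that of the genome, which is not a result about these genes. Over all genes 650 were called higher and 959 lower, and with upper quartile scaling 819 of 1492 were called higher.

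OR52D1, an olfactory receptor gene 238.8 kb upstream of HBG1 on the plus strand (5488685 to 5489749), fell with rapamycin. With the HBG1 sgRNA it measured 6.54, 6.10 and 5.21 CPM under DMSO and 3.66, 3.56 and 3.44 CPM under rapamycin. The groups did not overlap, and the rapamycin values lay within a narrow band. The log2 fold change was -0.75 (SE 0.20, adjusted p = 0.029), a 1.68-fold decrease from 5.95 ± 0.68 to 3.55 ± 0.11 CPM (SD, n = 3 each). Since the groups did not overlap, OR52D1 was necessarily lower in 3 of 3 pairs of same-numbered libraries. The non-targeting libraries showed the same order, at 6.78 CPM under DMSO and 4.06 and 3.23 CPM under rapamycin, a log2 difference of -0.89 that has no test. In this bulk RNA, fewer cells with a transcript and less of it per cell cannot be told apart.

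OR51I2, an olfactory receptor gene 199.5 kb upstream on the plus strand (5449323 to 5456518), also fell. With the HBG1 sgRNA it measured 8.32, 7.60 and 8.85 CPM under DMSO and 3.46, 5.51 and 5.03 CPM under rapamycin, without overlap. The log2 fold change was -0.82 (SE 0.23, adjusted p = 0.045), a 1.76-fold decrease. With the non-targeting sgRNA it was at 6.78 CPM under DMSO and at 7.69 and 3.999 CPM under rapamycin, so the rapamycin libraries lay on either side of the DMSO library. The call of OR51I2 was lost when any of the 6 HBG1 sgRNA libraries was left out, with adjusted p from 0.054 (rapamycin replicate 2) to 0.14 (DMSO replicate 3). That of OR52D1 was lost without rapamycin replicate 2 (0.068), rapamycin replicate 3 (0.11), DMSO replicate 1 (0.086) or DMSO replicate 2 (0.10). Without both libraries numbered 1, no neighbour was called, with adjusted p of 0.11 for OR51I2 and 0.077 for OR52D1.

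The 2 called genes belong to a run of 5 receptor genes and pseudogenes that follow each other among the 33, OR51K1P, OR51I1, OR51I2, OR51A10P and OR52D1, at 181.7 to 238.8 kb upstream. The run was singled out after its values were seen and has no test of its own. All 5 had lower fitted levels with rapamycin and the HBG1 sgRNA, with log2 fold changes from -0.40 to -0.85 and a median of -0.75. Their summed level was 32.2, 32.5 and 28.5 CPM under DMSO and 19.3, 22.5 and 18.1 CPM under rapamycin. With the non-targeting sgRNA the sum was 26.8 CPM under DMSO and 26.9 and 18.0 CPM under rapamycin, so only 1 of the 2 rapamycin libraries was below the DMSO library. OR51I1 measured 6.99, 8.23 and 6.24 CPM under DMSO and 5.57, 4.84 and 3.64 CPM under rapamycin (log2 fold change -0.63, SE 0.23, adjusted p = 0.12). OR51A10P measured 1.91, 1.54 and 1.57 CPM under DMSO and 0.62, 1.14 and 1.01 CPM under rapamycin (adjusted p = 0.20). Neither of these overlapped between groups, and neither passed the adjusted threshold. OR51K1P did overlap, at 8.39, 9.03 and 6.64 CPM under DMSO and 5.98, 7.41 and 5.00 CPM under rapamycin (adjusted p = 0.25).

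The 5 genes share no annotated exon bases with another gene. They lie within introns of the long transcripts of HBG2, HBE1 and OR51B5, which run on the minus strand. OR51K1P, OR51I1 and OR51A10P are on that strand too, so no strand setting would separate their reads from those of the long transcripts. OR51I2 and OR52D1 are on the plus strand. The strand setting of the counting is not given in the sources used here, so for these genes too the reads cannot be told apart. HBG2 changed in the other direction, from 430 ± 162 to 2724 ± 596 CPM (SD, n = 3 each), and HBE1 was at 8814 ± 3066 and 9938 ± 4030 CPM.

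**Figure D2:**
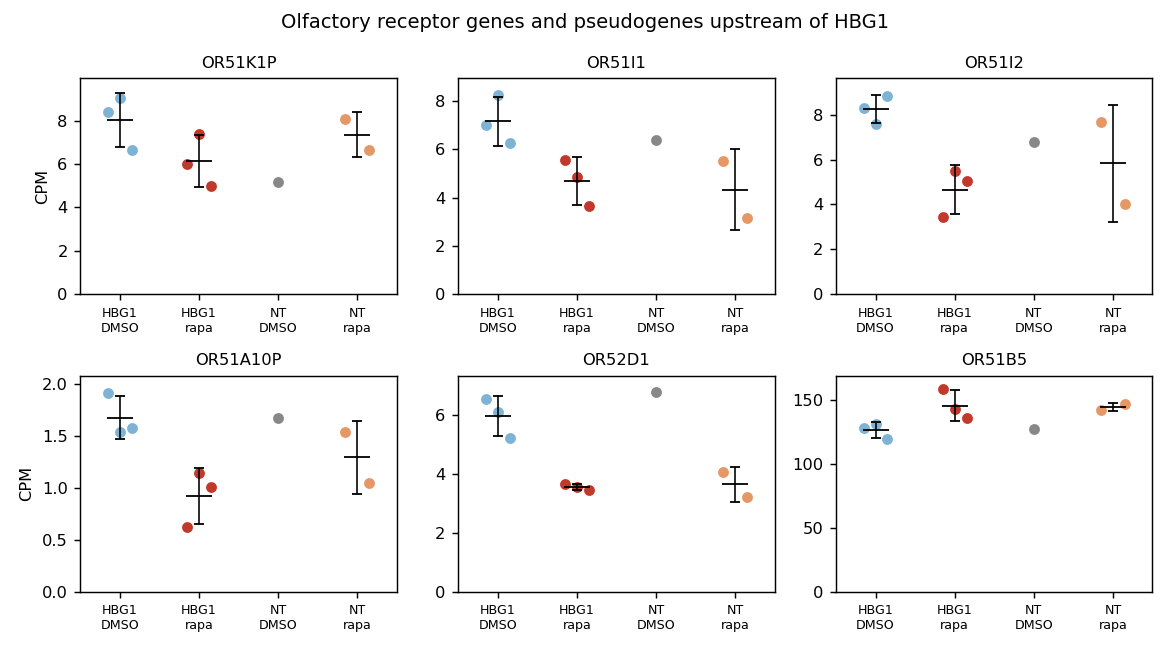
TMM-scaled CPM of OR51K1P, OR51I1, OR51I2, OR51A10P, OR52D1 and OR51B5 in each library, by guide (HBG1, or NT for non-targeting) and treatment (DMSO, or rapa for rapamycin). Points are libraries, and bars show the mean and SD of groups with 2 or 3 libraries. OR52D1 lies between 3.44 and 3.66 CPM in the 3 HBG1 sgRNA rapamycin libraries and at 5.21 CPM or more in the DMSO libraries.

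OR51B5 and OR51B4 were the most abundant neighbours. OR51B5, whose start lies 255.8 kb upstream, measured 128, 132 and 119 CPM with the HBG1 sgRNA under DMSO and 159, 143 and 136 CPM under rapamycin. The groups did not overlap, the log2 fold change was 0.21 (SE 0.08), and the adjusted p was 0.13. With the replicate number as a block, on the 6 HBG1 sgRNA libraries, OR51B5 was called higher (log2 fold change 0.21, adjusted p = 0.020). With the non-targeting sgRNA it was at 127 CPM under DMSO and 142 and 147 CPM under rapamycin. OR51B4, 52.1 kb upstream and the nearest abundant neighbour of HBG1, measured 46.1, 53.6 and 47.6 CPM under DMSO and 52.6, 56.9 and 49.7 CPM under rapamycin, and the groups overlapped (log2 fold change 0.11, SE 0.10, adjusted p = 0.58).

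Of the 5 annotated transcripts of OR51B5, 4 start between 5505613 and 5505652, far upstream of the receptor's coding region, where 2 of 3 HBE1 transcripts and 1 of 3 HBG2 transcripts also start. OR51B5 shares 211 exon bases with those transcripts and with AC104389.4. How much of the OR51B5 count comes from these shared exons was not tested.

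The replicate block takes same-numbered libraries as pairs, which the libraries show clearly for replicate 1 only. With this block, 4 of 23 genes were called (17.4%, against 17.1% of all 20179 genes tested in that fit, 7.43% higher and 9.62% lower). OR51I2 (log2 fold change -0.83, adjusted p = 0.0044), OR52D1 (-0.73, adjusted p = 0.016) and OR51I1 (-0.61, adjusted p = 0.027) were lower, and OR51B5 was higher. Differences within the 3 pairs were -1.27, -0.47 and -0.82 on the log2 scale for OR51I2, and -0.84, -0.78 and -0.60 for OR52D1. For OR51I1 they were -0.33, -0.77 and -0.78, and for OR51B5 they were 0.31, 0.12 and 0.19. In all 4 genes every pair had the same direction, which follows from groups that do not overlap and adds nothing to the calls.

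Without regard to a test, 8 of the 30 genes had rapamycin and DMSO values that did not overlap with the HBG1 sgRNA (26.7%, against 25.3% of all genes). The 3 that were higher were TRIM68, OR51B5 and OR51Q1 (10.0%, against 12.2%), and the 5 that were lower were OR51E2, OR51I1, OR51I2, OR51A10P and OR52D1 (16.7%, against 13.1%). Both shares were near those of the genome.

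The second question was whether the response to rapamycin differed between the guides. No neighbour was called in the interaction with edgeR (0 of 30, against 0.00422% of all genes, which is 1 gene), with DESeq2 or with limma voom, and 3 genes had an unadjusted p under 0.05 in edgeR (10.0%, against 2.86%). These were OR52A5 (difference of log2 fold changes -2.98, SE 1.06), OR51K1P (-0.92, SE 0.35) and OR51AB1P (-3.02, SE 1.32), each with an adjusted p of 0.9999. The interaction rests on 1 non-targeting DMSO library, in which OR52A5 had 2 counts and OR51AB1P 6. The interaction of OR51I2 was -0.61 (SE 0.42) and that of OR52D1 was 0.14 (SE 0.35). Of the 22 genes with a mean of 10 or more counts, 6 were higher with rapamycin under both guides, 4 were lower under both, 8 were lower with the HBG1 sgRNA and higher with the non-targeting sgRNA, and 4 were the reverse.

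**Figure D3:**
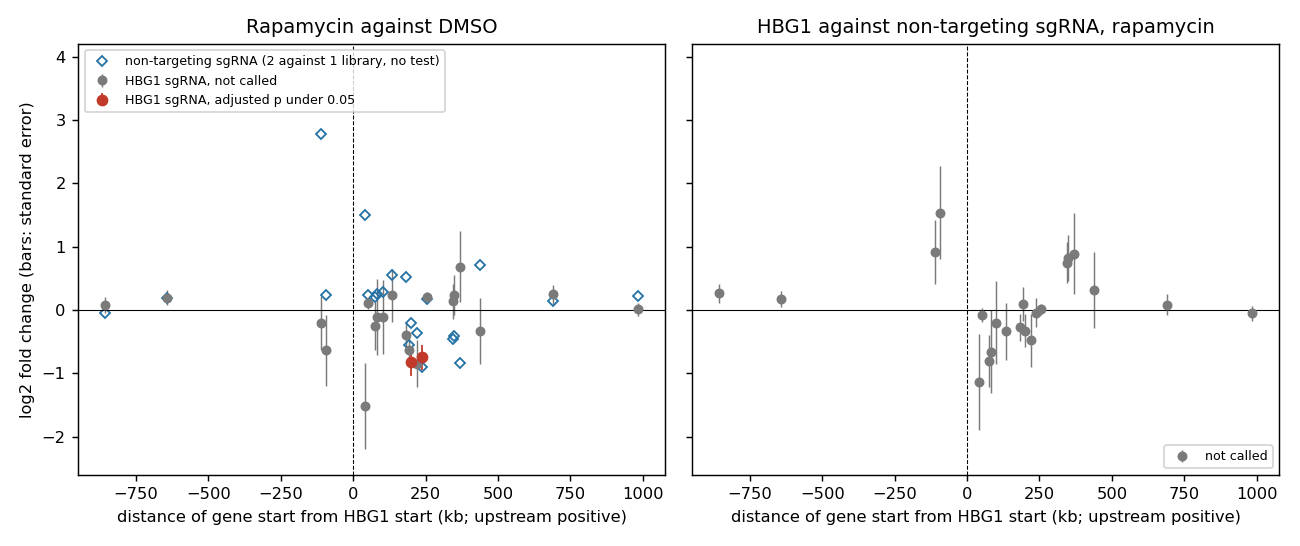
Log2 fold change against distance from the HBG1 start in kb, upstream positive, for the 22 genes with a mean of 10 or more counts. The left panel shows rapamycin against DMSO with the HBG1 sgRNA (filled, with SE) and with the non-targeting sgRNA (open diamonds, no test), and the right panel shows HBG1 against non-targeting sgRNA under rapamycin. The called genes are OR51I2 and OR52D1, at 199.5 and 238.8 kb, and no gene was called in the right panel.

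By distance, the tested genes under 100 kb from HBG1 had a median log2 fold change of -0.25 with rapamycin (5 genes), those at 100 to 250 kb -0.21 (11 genes), those at 250 to 500 kb 0.24 (7 genes) and those over 500 kb 0.08 (7 genes). Of the genes overlapping the HBG2 span, 10 of 15 tested were lower, and outside it 5 of 15, where 11284 of all 23675 genes were lower. The genes outside the span include OR51C1P and AC022762.2, both over 500 kb away, and HNRNPA1P53, at 250 to 500 kb. The count rule admitted each of them under 1 treatment alone. Nothing is therefore read from their direction or from the counts and medians that include them. The medians and counts are descriptions of the fitted values and not tests of distance.

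The genes nearest to HBG1 on the upstream side were OR51AB1P, a receptor pseudogene 42.5 kb away, OR51B4 and OR51B2. OR51AB1P measured 1.62, 0.94 and 0.30 CPM under DMSO and 0.10, 0.57 and 0.32 CPM under rapamycin with the HBG1 sgRNA, and the groups overlapped (log2 fold change -1.52, SE 0.68, adjusted p = 0.21). Without DMSO replicate 1 the log2 fold change was -0.90, and without both HBG1 sgRNA libraries numbered 1 it was -0.52. The highest value was in DMSO replicate 1 and the lowest in rapamycin replicate 1. OR51B2, 74.4 kb away, measured 1.72, 1.26 and 1.23 CPM under DMSO and 1.75, 0.71 and 1.10 CPM under rapamycin (log2 fold change -0.25, SE 0.38, adjusted p = 0.77).

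Several large fitted changes came from few counts. OR51E2, a receptor best known from prostate, had 3, 39 and 3 counts under DMSO and 0, 1 and 2 under rapamycin with the HBG1 sgRNA, in libraries of 19797409 to 31619671 counts. The fitted log2 fold change was -3.58 (adjusted p = 0.16), and without DMSO replicate 2 it was -1.46 (adjusted p = 0.73). OR51C1P, which shares 179 exon bases with OR51E2, had 13 counts in DMSO replicate 2, 3 in DMSO replicate 3 and 0 in the other 7 libraries. HNRNPA1P53, a pseudogene of HNRNPA1, had 13 counts in non-targeting rapamycin replicate 2 and at most 2 in any other library. OR51Q1 had 11, 6 and 0 counts under DMSO and 17, 9 and 15 under rapamycin with the HBG1 sgRNA (log2 fold change 1.56, SE 0.88, adjusted p = 0.34).

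The 7 TRIM genes did not pass the test in any comparison. With the HBG1 sgRNA, 6 of 7 had a higher fitted level under rapamycin (median log2 fold change 0.198), and 0 were called or had an unadjusted p under 0.05 with edgeR. These 6 include TRIM6, TRIM34 and TRIM6-TRIM34, which share exons and are not separate measurements. With the non-targeting sgRNA, 3 of the 7 TRIM genes were higher and 4 lower (median -0.044, no test). TRIM68, a RING-type ubiquitin ligase gene, measured 15.6, 15.7 and 16.1 CPM under DMSO and 17.6, 17.4 and 19.3 CPM under rapamycin, without overlap (log2 fold change 0.20, SE 0.11, adjusted p = 0.34). TRIM5, which encodes a restriction factor that binds retroviral capsids, measured 14.1, 12.4 and 15.7 CPM under DMSO and 17.9, 14 and 18.2 CPM under rapamycin, with overlap (log2 fold change 0.25, SE 0.15, adjusted p = 0.37). TRIM21, whose product is a cytosolic antibody receptor, averaged 11.7 ± 0.56 CPM in DMSO and 12.3 ± 0.69 CPM in rapamycin (SD, n = 3 each). TRIM22, an interferon-induced antiviral gene, was low, at 0.90 ± 0.43 and 0.71 ± 0.06 CPM (SD, n = 3 each), and its largest value was in DMSO replicate 3.

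The readthrough gene TRIM6-TRIM34 cannot be counted apart from TRIM6 and TRIM34, since all 3391 exon bases of TRIM6-TRIM34 lie in exons of the other two. TRIM6 encodes a ubiquitin ligase that acts in interferon signalling, and TRIM34 a relative of TRIM5. The counts of the 3 genes added together gave 4.95, 9.84 and 8.65 CPM under DMSO and 10.0, 7.03 and 10.1 CPM under rapamycin with the HBG1 sgRNA. With the non-targeting sgRNA the sum was 7.30 CPM under DMSO and 4.06 and 6.45 CPM under rapamycin. The rapamycin libraries of the guides did not overlap, but the DMSO library of the non-targeting sgRNA lay inside the range of the HBG1 sgRNA. For the sum, the log2 difference between guides under rapamycin was 0.79 (SE 0.28, adjusted p = 0.77), and the rapamycin change with the HBG1 sgRNA was 0.22 (SE 0.24, adjusted p = 0.67).

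The third comparison set the HBG1 sgRNA against the non-targeting sgRNA under rapamycin. No neighbour was called with edgeR (0 of 30, against 0.0296% of all genes, which is 7 genes), with DESeq2 or with limma voom. Before adjustment, 2 genes had a p under 0.05 (6.67%, against 6.27%), TRIM6 (log2 difference 0.75, SE 0.33) and TRIM6-TRIM34 (0.82, SE 0.37), each with an adjusted p of 0.77. The 2 groups did not overlap for 11 of 30 genes (36.7%, against 22.6% of all genes). Of these 9 were higher with the HBG1 sgRNA (30%, against 11.2%), namely TRIM21, TRIM68, OR52A5, OR52A1, OR51Q1, TRIM6, TRIM6-TRIM34, TRIM34 and TRIM22. OR52A1 is among them by the count rule, so nothing is read from the shares that hold it. The 2 that were lower were OR51AB1P and OR51B2 (6.67%, against 11.3%). All 7 TRIM genes had a positive fitted difference (median 0.313), but 3 of them share exons and are not separate measurements.

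OR52A5, OR52A1 and TRIM21, all on the downstream side of HBG1, were higher in all 6 HBG1 sgRNA libraries than in all 3 non-targeting libraries, and OR51B2 was lower. That is 4 of 30 genes (13.3%, against 2.12% of all genes), of which 3 were higher (10.0%, against 0.976%) and 1 lower (3.33%, against 1.15%). OR52A1 reached 10 counts in HBG1 sgRNA libraries only, so the count rule fixed its direction, and nothing is read from the shares that include it. OR52A5, 111.5 kb downstream, measured 1.81, 0.87 and 1.38 CPM under DMSO and 1.34, 1.09 and 1.10 CPM under rapamycin with the HBG1 sgRNA. With the non-targeting sgRNA it was at 0.086 CPM under DMSO and at 0.47 and 0.77 CPM under rapamycin. OR52A1, 95.1 kb downstream, measured 0.74, 2.13 and 0.59 CPM under DMSO and 0.98, 0.81 and 0.49 CPM under rapamycin with the HBG1 sgRNA. It was at 0.21 CPM under DMSO and at 0.24 and 0.27 CPM under rapamycin with the non-targeting sgRNA, where its counts were 5, 6 and 6. These 2 receptor genes are neighbours at the far end of the globin cluster, beyond HBB.

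In a model with a guide term and a treatment term over all 9 libraries, the log2 difference between guides was 1.61 for OR52A5 (SE 0.52, adjusted p = 0.74). It was not called, and neither was any other neighbour (0 of 30, against 0.0549% of all genes). OR52A5 and OR52A1 were the 2 neighbours with an unadjusted p under 0.05 in that model (6.67%, against 6.46% of all genes). The count rule admitted OR52A1 through the HBG1 sgRNA libraries. Its difference is therefore not given as a test, and nothing is read from that share. TRIM21 ranged from 11.1 to 13.1 CPM in the HBG1 sgRNA libraries and from 9.94 to 10.6 CPM in the non-targeting libraries (log2 difference 0.22, SE 0.11, adjusted p = 0.79). OR51B2 ranged from 0.71 to 1.75 CPM and from 1.77 to 2.37 CPM respectively (log2 difference -0.64, SE 0.32, adjusted p = 0.78).

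**Figure D4:**
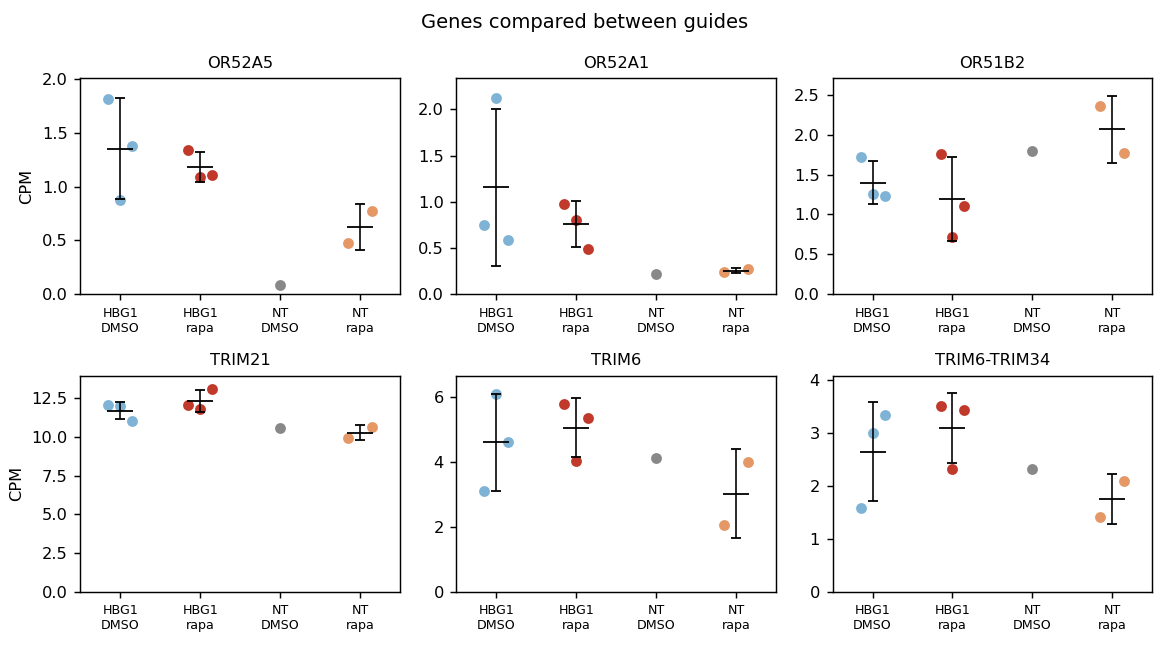
TMM-scaled CPM of OR52A5, OR52A1, OR51B2, TRIM21, TRIM6 and TRIM6-TRIM34 in each library, by guide (HBG1, or NT for non-targeting) and treatment (DMSO, or rapa for rapamycin). Points are libraries, and bars show the mean and SD of groups with 2 or 3 libraries. OR52A1 lies at 0.27 CPM or less in the 3 non-targeting libraries and at 0.49 CPM or more in the HBG1 sgRNA libraries. The count rule admitted OR52A1 through HBG1 sgRNA libraries alone, so nothing is read from this difference.

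The remaining genes showed no difference that passed a test. FAM160A2, at the upstream edge of the window, encodes a subunit of a complex that links dynein to endosomes. It measured 26.2, 31.95 and 27.3 CPM under DMSO and 27.5, 29.2 and 29.5 CPM under rapamycin with the HBG1 sgRNA (log2 fold change 0.01, SE 0.10, adjusted p = 0.96). UBQLNL, a ubiquilin-like gene, had 11, 2 and 0 counts under DMSO and 6, 11 and 5 under rapamycin, and the non-coding RNA gene AC022762.2 had 8, 5 and 1 and then 15, 3 and 13. OR51B6, OR51B8P, OR51M1, OR51J1 and AC104389.2, all upstream, had mean levels over the 9 libraries of 0.30 to 1.24 CPM and adjusted p of 0.81 to 0.95 for rapamycin with the HBG1 sgRNA.

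Other gene lists give the context of these values. Of 48 tested genes with a start 1 to 2 Mb from the HBG1 start, 2 were called for rapamycin with the HBG1 sgRNA, NUP98 lower (log2 fold change -0.33, adjusted p = 0.0090) and DNHD1 higher (0.45, adjusted p = 0.019), and the median was -0.119. Of 53 tested olfactory receptor genes elsewhere in the genome, 0 were called with edgeR, 2 had an unadjusted p under 0.05, and the median was 0.206. That list was chosen by symbol, whatever the gene type. For the 13 receptor genes near HBG1, which leave out pseudogenes, the median was -0.25, with 9 lower and 4 higher. The 9 include OR51C1P, which the count rule admitted under DMSO alone. The 5 tested receptor pseudogenes near HBG1 were all lower (median -0.399). Of 11 tested genes of olfactory signalling, REEP1, which helps bring receptors to the cell surface, was called higher (1.59, adjusted p = 0.041). Among 51 tested TRIM genes elsewhere, TRIM25 was called lower (-0.51, adjusted p = 0.0060), and the median was -0.014. Of 35 tested interferon-stimulated genes, RSAD2 was called higher (0.89, adjusted p = 0.045), and the median was 0.165. The differences between these lists and the neighbours of HBG1 were not tested.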

How the data were processed

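Whole-number read counts per Ensembl gene were deposited by the authors as 1 table with 1 column per library. The submitters' processing notes name STAR 2.7.3a, featureCounts, Subread 2.0.0, R 4.1.2, limma 3.34.9, edgeR 3.24.0 and GRCh38, without their order. The annotation release, the strand setting and the treatment of multi-mapping reads are not given in the sources used here. Per the labels' protocols, mRNA was captured on poly-T beads and libraries were built with a NEBNext Ultra kit. GENCODE 29 gave symbols and positions for 58039 of 58347 gene IDs.

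The count table was tested in R 4.3.3 with edgeR 4.0.16 (filterByExpr by group with a minimum count of 10, which left 23675 genes, TMM scaling, glmQLFit and glmQLFTest on all 9 libraries with 1 mean per group). p-values were Benjamini-Hochberg adjusted over all tested genes, and genes were called at an adjusted p under 0.05. Standard errors were obtained as the absolute log2 fold change over the root of F. Contrasts with the single non-targeting DMSO library are values only, except the interaction, which takes that library's spread from the other groups. DESeq2 1.42.0 and limma voom 3.58.1, other scalings and filters, a replicate block and leaving out each library were alternatives. In counts simulated over 23675 genes for HBG1 sgRNA cells, rapamycin against DMSO, 73% of 100 genes changed by 1 on the log2 scale and 90% of 100 changed by 2 were recovered, with 7 false calls. The changed genes were drawn from those above a minimum mean CPM, and no replicate effect was simulated. The recovery therefore does not cover genes with lower means or changes smaller than 1.

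With the HBG1 sgRNA, same-numbered libraries deviated together from their group means, with correlations of 0.553, 0.278 and 0.231 over 11498 genes, all above the limit of 0.1. Rapamycin replicate 2 with DMSO replicate 3 gave 0.258, and rapamycin replicate 3 with DMSO replicate 2 gave 0.194. Replicate 1 with any other number gave -0.41 to -0.32. The values thus set replicate 1 apart, but do not show that the numbers pair replicates 2 and 3. Across the guides the correlations under rapamycin were -0.068 and -0.069. No replicates repeated a library.

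Genes named with values were those called with or without the block, the 10 with the highest mean CPM, every TRIM gene, the 3 tested genes nearest to HBG1 on each side and the 3 highest and 3 lowest fold changes per test. Others named are those whose groups did not overlap, those in the run of 5 receptor genes and those at the count limit, and these were chosen after their values were seen. The 33 genes and the comparison lists were chosen with earlier results of these data known.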

Additional observations from a re-analysis of the deposited data

How the results depend on the processing

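The number of neighbours called for rapamycin with the HBG1 sgRNA was 2. It was 1 with upper quartile scaling, 4 with a replicate block on the 6 HBG1 sgRNA libraries, 4 in the additive model of guide and treatment, 0 to 2 with each library left out in turn, and 0 without both HBG1 sgRNA libraries numbered 1 (an alternative chosen after seeing the data, as was adding the TRIM6, TRIM34 and TRIM6-TRIM34 counts). The cause was not tested, but leaving out libraries also leaves fewer samples. In the other 2 comparisons 0 were called under every alternative run. The replicate block changed no other call. Without a filter OR51E2 was also called (adjusted p = 0.036).

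Each sign that changed belonged to a difference that was not called in its comparison. For rapamycin with the HBG1 sgRNA, log2 fold changes with each library left out ran from -0.045 to 0.11 for FAM160A2, -0.089 to 0.40 for TRIM6, -0.030 to 0.44 for TRIM6-TRIM34, -0.59 to 0.10 for TRIM22, -0.44 to 0.077 for OR52A5 and -0.93 to 0.16 for OR52A1. Without both libraries numbered 1 they were -0.017 for FAM160A2, -0.19 for TRIM6 and -0.12 for TRIM6-TRIM34, and in the additive model they were -0.040 for TRIM6 and 0.28 for OR52A5. Between guides under rapamycin the ranges were -0.11 to 0.31 for TRIM5, -3.32 to 3.19 for OR51E2, -0.052 to 0.063 for OR51B5, -0.25 to 0.57 for OR51I1, -0.19 to 0.14 for OR52D1 and -0.71 to 0.23 for OR51I2. Without both libraries numbered 1 they were -0.053 for OR51B5 and -0.049 for OR51I1, and with a replicate block over all libraries 0.030 for OR52D1. For the interaction the ranges were -0.095 to 0.33 for TRIM5, -0.044 to 0.053 for TRIM68, -0.040 to 0.076 for OR51B5, -0.41 to 0.40 for OR51I1 and -0.0093 to 0.32 for OR52D1. It was -0.032 for OR51B5 without both libraries numbered 1. With a replicate block over all libraries it was 0.063 for OR51I1, and with a replicate block within each guide it was 0.41 for OR51I1 and -0.10 for TRIM5.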
